A study of Mus musculus with 20 samples.

Results

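Purkinje cells and granule cells are the output neurons and the most numerous small neurons of the cerebellar cortex. Granule cells send parallel fibres onto Purkinje dendrites, and cerebellin secreted by granule cells binds presynaptic neurexin at these synapses. Some genes of these cells are almost restricted to the cerebellum, whereas others are also used by neurons of the forebrain and midbrain, so that in RNA from a brain sample the first kind reports mainly on cerebellar tissue and the second does not.

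The 10 genes described here were chosen by name as genes of Purkinje cells (*Pcp2*, *Car8* and *Calb1*) and of granule cells and their lineage (*Gabra6*, *Cbln1*, *Cbln3*, *Neurod1*, *Zic1*, *Zic2* and *En2*). Each had 1 row in a table of 17211 genes, so all 10 were measured and none was removed by a filter. The samples were brains of 10 C57BL/6 mice and 10 *Winnie* mice, all aged 14 weeks, 1 library per mouse. *Winnie* mice carry a missense mutation of *Muc2*, which encodes the secreted mucin of intestinal goblet cells, and develop chronic colitis spontaneously, and the C57BL/6 mice came from the same breeding colony. *Muc2* was not analysed here, so the genotype was not checked from its level. The labels give the tissue as brain, and no plane or part of the dissection is named in the sources used here.

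Values are CPM, reads of a gene scaled to a common library size over the listed genes. The libraries held 16540303 to 23923769 reads, so that 1 read was worth 0.0418 to 0.0605 CPM, and a count of 0 allows a level of up to 3 reads, which is at most 0.181 CPM and covers counting error only. The pan-neuronal gene *Snap25* lay at 1919 to 2479 CPM and the myelin gene *Mbp* at 3014 to 3969 CPM in the 20 brains. In 9 of 10 C57BL/6 libraries and 0 of 10 *Winnie* libraries the levels of *Xist* and *Ddx3y* went against the labelled sex. Labelled sex entered only as an alternative covariate, because the paper's methods name no covariate. With this mismatch in C57BL/6, that covariate may not adjust for sex. The C57BL/6 library with replicate number 10 stood apart in 4 of the 10 genes, and the values that it moves most are also given without it.

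The genes that define the 2 cell types most sharply were low, and *Gabra6* and *Pcp2* had under 3 reads in 4 of 20 brains each. *Gabra6* encodes the GABA-A receptor subunit of mature granule cells and lies at chr11:42306437-42321072 on the minus strand (GRCm38). In C57BL/6 its level ran from 0.125 CPM over a median of 0.804 CPM to 7.44 CPM, and in *Winnie* it ran from 0 over a median of 0.262 to 1.40 CPM. Without C57BL/6 replicate 10 no brain exceeded 1.81 CPM. Only 0 to 129 reads stood behind these values, with 1 brain at 0 and 4 brains under 3 reads. *Pcp2* encodes a modulator of G protein signalling found in Purkinje cells (chr8:3623371-3625545, minus strand). Its C57BL/6 level ran from 0 over a median of 0.561 to 5.02 CPM and its *Winnie* level from 0 over 0.507 to 1.02 CPM, with 2 brains at 0 and 4 brains under 3 reads. *Cbln3*, a cerebellin made by granule cells (chr14:55878913-55884392, minus strand), had 12 to 222 reads per brain, from 0.543 over 2.37 to 12.8 CPM in C57BL/6 and from 0.625 over 1.08 to 3.70 CPM in *Winnie*. The groups overlapped in all 3 genes, and the brain with the highest level was the same one each time. With these defining genes at low levels, the 10 genes are described here by their names, and no level was taken as an amount of cerebellar tissue. In bulk RNA, fewer cells of a type and less RNA per cell cannot be told apart.

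The promoters of these 3 genes and of *Zic1* are shown because the first 3 moved together between brains, as described later, and *Zic1* did not move with them. They come from RefSeq on GRCm38.p6, which had an entry for 5 of the 10 members (*Gabra6*, *Pcp2*, *Cbln3*, *Zic1* and *Neurod1*). Each line reads 5′ to 3′ on the gene's strand and gives the bases before the start site that lie outside annotated UTRs, at chr11:42321073-42321322 for *Gabra6*, chr14:55884393-55884506 for *Cbln3*, chr8:3625607-3625778 for *Pcp2*, whose most upstream start site of 4 was used, and chr9:91365811-91366018 for *Zic1*, all on the minus strand. Capitals mark matches to 4 motifs searched on both strands, the E-box CANNTG, the NFI half-site TTGGC, the nuclear receptor half-site AGGTCA and the TATA box TATAAA.
Gabra6: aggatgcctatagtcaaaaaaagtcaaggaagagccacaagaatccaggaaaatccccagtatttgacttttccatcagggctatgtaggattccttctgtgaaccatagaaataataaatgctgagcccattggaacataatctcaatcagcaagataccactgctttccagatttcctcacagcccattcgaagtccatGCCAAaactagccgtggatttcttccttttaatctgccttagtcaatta
Cbln3: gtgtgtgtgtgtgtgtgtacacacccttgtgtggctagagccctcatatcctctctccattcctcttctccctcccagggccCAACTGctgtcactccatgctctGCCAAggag
Pcp2: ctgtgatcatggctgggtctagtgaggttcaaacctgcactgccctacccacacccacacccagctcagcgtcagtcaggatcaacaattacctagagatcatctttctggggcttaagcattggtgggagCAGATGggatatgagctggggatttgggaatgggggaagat
Zic1: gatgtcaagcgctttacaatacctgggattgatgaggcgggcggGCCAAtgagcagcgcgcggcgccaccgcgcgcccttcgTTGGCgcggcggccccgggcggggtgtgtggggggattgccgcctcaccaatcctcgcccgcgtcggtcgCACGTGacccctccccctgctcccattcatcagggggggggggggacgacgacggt
Over the 250 bases before the start site, *Gabra6* had 1 NFI half-site, on the strand opposite to the gene and 49 bases before the start, *Cbln3* had 1 NFI half-site and 1 E-box, and *Pcp2* had 1 E-box and 1 nuclear receptor half-site, the latter 12 bases before the start and outside the stretch shown. *Zic1* had 2 NFI half-sites and 1 E-box, and *Neurod1* had 1 E-box. The 4 motifs were held by 66.23%, 41.52%, 14.03% and 12.37% of 32841 promoters of that length for E-box, NFI, nuclear receptor and TATA. The sequences differed in composition. *Gabra6*, *Cbln3* and *Pcp2* held 2, 2 and 1 CpG dinucleotides at 40.8%, 57.6% and 52.8% G and C, whereas *Zic1* and *Neurod1* held 27 and 22 CpG dinucleotides at 66.0% and 67.6%, against a median of 52.4% over all promoters. These are descriptions of the letters in the windows and say nothing of binding.

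The other 7 genes had at least 11 reads in every brain. *Car8* encodes a carbonic anhydrase-related protein that binds the inositol trisphosphate receptor of Purkinje cells (chr4:8143362-8239041, minus strand). Its level was 9.13 to 26.0 CPM in C57BL/6 with a median of 11.6, and 7.80 to 13.2 CPM in *Winnie* with a median of 9.91. The transcription factor *En2*, which patterns the midbrain and cerebellum (chr5:28165694-28172166, plus strand), lay between 0.669 and 4.18 CPM in C57BL/6, with a median of 2.59, and between 0.576 and 3.96 CPM in *Winnie*, with a median of 1.81. No brain had fewer than 11 reads of it. *Calb1* encodes the calcium buffer calbindin, found in Purkinje cells and in many forebrain neurons (chr4:15881264-15908064, plus strand), and had medians of 106.7 CPM in C57BL/6 and 99.0 CPM in *Winnie*. The zinc finger genes *Zic1* (chr9:91358058-91365810, minus strand) and *Zic2* (chr14:122475435-122479852, plus strand), which act in granule cell precursors and in other parts of the developing brain, had C57BL/6 medians of 56.4 and 30.5 CPM and *Winnie* medians of 64.96 and 30.05 CPM. *Cbln1* encodes a cerebellin secreted by granule cells (chr8:87468405-87472609, minus strand) and had a median of 33.2 CPM in either genotype. *Neurod1*, a factor of granule cell and hippocampal differentiation (chr2:79452521-79456751, minus strand), had medians of 16.2 and 15.7 CPM in C57BL/6 and *Winnie*. Whether counting used strand is not given in the sources used here. By whole gene spans, introns included, *Pcp2*, *Zic1*, *Cbln1* and *En2* overlap the opposite-strand neighbours *Pet100*, *Zic4*, *Gm2694* and *Gm43610*. *Neurod1* and *Car8* overlap *Cerkl* and *Gm11799* on their own strand and *Gm26755* and *Gm25355* on the opposite strand. Overlap of exons was not checked, so reads of these neighbours may not have been separated.

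**Figure D1:**
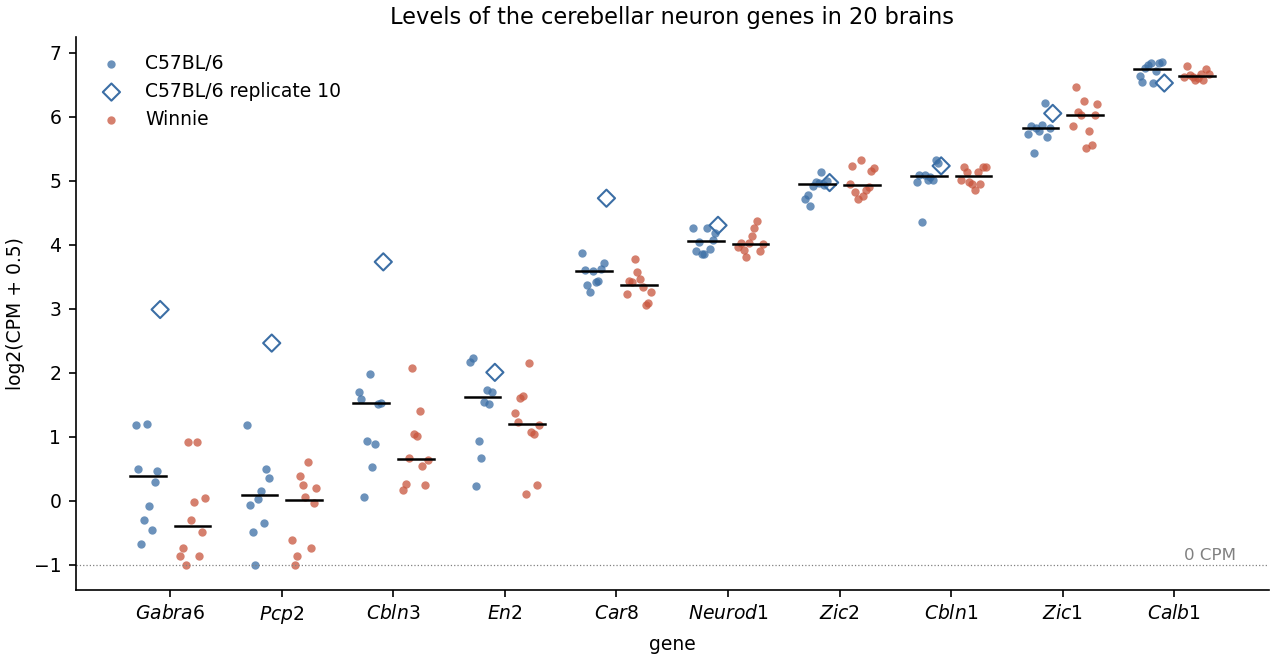
Level of each of the 10 genes in each of 20 brains, as log2(CPM + 0.5) on the vertical axis, with C57BL/6 in blue, *Winnie* in red, black bars at the medians and an open diamond for C57BL/6 replicate 10. That brain stands far above the others in *Gabra6* (7.44 CPM), *Pcp2* (5.02 CPM), *Cbln3* (12.8 CPM) and *Car8* (26.0 CPM) and within the range of the other brains in *En2*, *Zic1*, *Zic2*, *Cbln1* and *Neurod1*. In *Calb1* it is the lowest of the 20 brains (91.9 CPM, next 92.4 CPM).

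Per kilobase of annotated exon, the order of the median levels over the 20 brains was *Calb1* (20.7 CPM per kb), *Cbln1* (10.9), *Zic2* (10.5), *Zic1* (10.1), *Neurod1* (5.78), *Car8* (2.67), *En2* (0.627), *Cbln3* (0.301), *Pcp2* (0.289) and *Gabra6* (0.187), against a median of 4.09 CPM per kb over all genes. *Calb1* exceeded *Cbln1* in 20 of 20 brains, by 10.2 ± 1.94 CPM per kb (mean ± SD, n = 20). *Cbln1*, *Zic2* and *Zic1* did not differ beyond their spread, with *Cbln1* above *Zic2* in 11 of 20 brains and *Zic2* above *Zic1* in 12. *Zic1*, *Neurod1* and *Car8* each exceeded the next gene in 20 of 20 brains. *En2*, *Cbln3*, *Pcp2* and *Gabra6* again did not differ from their neighbours beyond the spread, *En2* being above *Cbln3* in 16 brains, *Cbln3* above *Pcp2* in 11 and *Pcp2* above *Gabra6* in 13.

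The members differed widely in how much they varied between brains of 1 genotype. The SD of log2(CPM + 0.5) within genotype was 0.91 for *Gabra6*, 0.82 for *Cbln3*, 0.80 for *Pcp2*, 0.64 for *En2* and 0.33 for *Car8*. These values lay at percentiles 99.9, 99.8, 99.8, 99.6 and 95.5 of the SDs of all 17211 genes, whose median was 0.15. The other members were less variable, with SDs of 0.26 for *Zic1*, 0.21 for *Cbln1*, 0.19 for *Zic2*, 0.17 for *Neurod1* and 0.11 for *Calb1*, the last at percentile 29.0. Counting error alone gave SDs of 0.20 for *Gabra6*, *Pcp2* and *Cbln3*, and the measured SD was between 2.16 (*Neurod1*) and 6.03 times (*Zic1*) the counting SD over the 10 genes. In C57BL/6 the highest *Gabra6* value was 59.5 times the lowest and the highest *Cbln3* value 23.6 times the lowest, whereas for *Calb1* this ratio was 1.26. Without C57BL/6 replicate 10 these ratios were 14.4, 6.37 and 1.25. The SD without that library was 0.69 for *Gabra6*, 0.61 for *Cbln3*, 0.60 for *Pcp2* and 0.65 for *En2*, still at percentiles 99.7, 99.6, 99.5 and 99.6. For *Car8* it was 0.21, at percentile 71.4, so that the wide spread of *Car8* rested on that brain.

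*Gabra6*, *Cbln3*, *Pcp2* and *Car8* were high together and low together from brain to brain, and their correlations with the other 6 members did not pass the test. With genotype means removed, *Gabra6* correlated with *Cbln3* at r = 0.932 and rho = 0.859 over 20 brains (permutation p = 1.0e-05 for r, which is the smallest that 100000 resamples can give, and 2.0e-05 for rho, adjusted p = 0.00023 and 0.00045 over the 45 member pairs). This relation was present in both genotypes, at r = 0.964 in C57BL/6 and 0.852 in *Winnie*, and r was 0.874 without the 2 brains farthest from the median in *Gabra6*. *Gabra6* with *Pcp2*, a granule cell gene with a Purkinje cell gene, gave r = 0.890 and rho = 0.844, with adjusted permutation p = 0.00023 and 0.00045. It was 0.895 in C57BL/6, 0.879 in *Winnie* and 0.767 without the 2 farthest brains. Among all 17210 other genes of the table, *Cbln3*, *Pcp2* and *Car8* took ranks 1, 2 and 4 in correlation with *Gabra6*, and *Gabra6*, *Car8* and *Cbln3* took ranks 1, 2 and 3 in correlation with *Pcp2*.

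The relations with *Car8* depended more on 1 brain. *Car8* correlated with *Gabra6* at r = 0.821, with *Cbln3* at 0.871 and with *Pcp2* at 0.807, and rho was 0.669, 0.756 and 0.633 (adjusted permutation p of rho 0.015, 0.0032 and 0.026). In *Winnie* alone the 3 values of r were 0.498, 0.737 and 0.336, none of which passed (adjusted permutation p = 0.54, 0.12 and 0.75). Without C57BL/6 replicate 10 they were 0.636, 0.732 and 0.596, and the relation of *Car8* with *Pcp2* no longer passed (adjusted permutation p = 0.058). *Cbln3* with *Pcp2* gave r = 0.799 and rho = 0.711, and r was 0.619 without that brain. The 6 pairs of these 4 genes had a median r of 0.846, against 0.199 for their 24 pairs with the other 6 members, 0.0438 for the 15 pairs among those 6, and 0.0367 for all pairs of genes in the table. The 4 were put together after their values were seen, and these medians are descriptions.

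**Figure D2:**
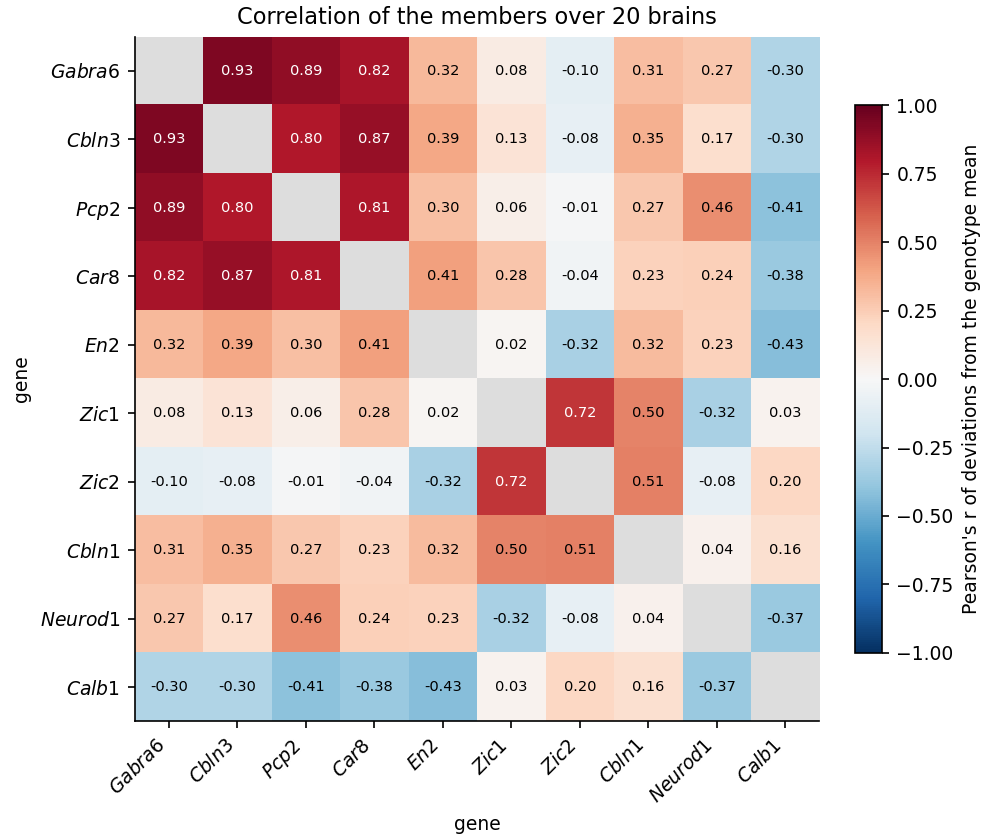
Pearson's r between each pair of the 10 genes over 20 brains after removal of the genotype means, written in each cell and coloured from blue (negative) to red (positive). The 6 pairs of *Gabra6*, *Cbln3*, *Pcp2* and *Car8* lie between 0.799 and 0.932, and outside this block the highest value is 0.717 for *Zic1* with *Zic2*.

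Of the 45 pairs, 7 passed an adjusted p of 0.05 for both r and rho, the 6 already named and *Zic1* with *Zic2*. These family members, which lie on different chromosomes, gave r = 0.717 and rho = 0.663 (adjusted permutation p = 0.0064 and 0.026), at 0.793 in C57BL/6, 0.680 in *Winnie* and 0.646 without the 2 brains farthest in *Zic1*. *Zic1* and *Zic2* each correlated with *Cbln1* at about the same size, r = 0.499 and 0.507, which did not pass (adjusted permutation p = 0.077 and 0.071). Removing *Gabra6* as a linear term left 13.2% of the variance of *Cbln3* between brains, 20.8% of that of *Pcp2* and 32.6% of that of *Car8*. It left 89.7% of that of *En2* and 90.6% to 99.4% for the other 5 members, *Zic1* being the highest. Without C57BL/6 replicate 10 the r of *Gabra6* with *Cbln3*, *Pcp2* and *Car8* was 0.872, 0.796 and 0.636, so more of their variance would be left. *Gabra6*, at percentile 99.9 in spread, and *Zic1* were unrelated at r = 0.0794.

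**Figure D3:**
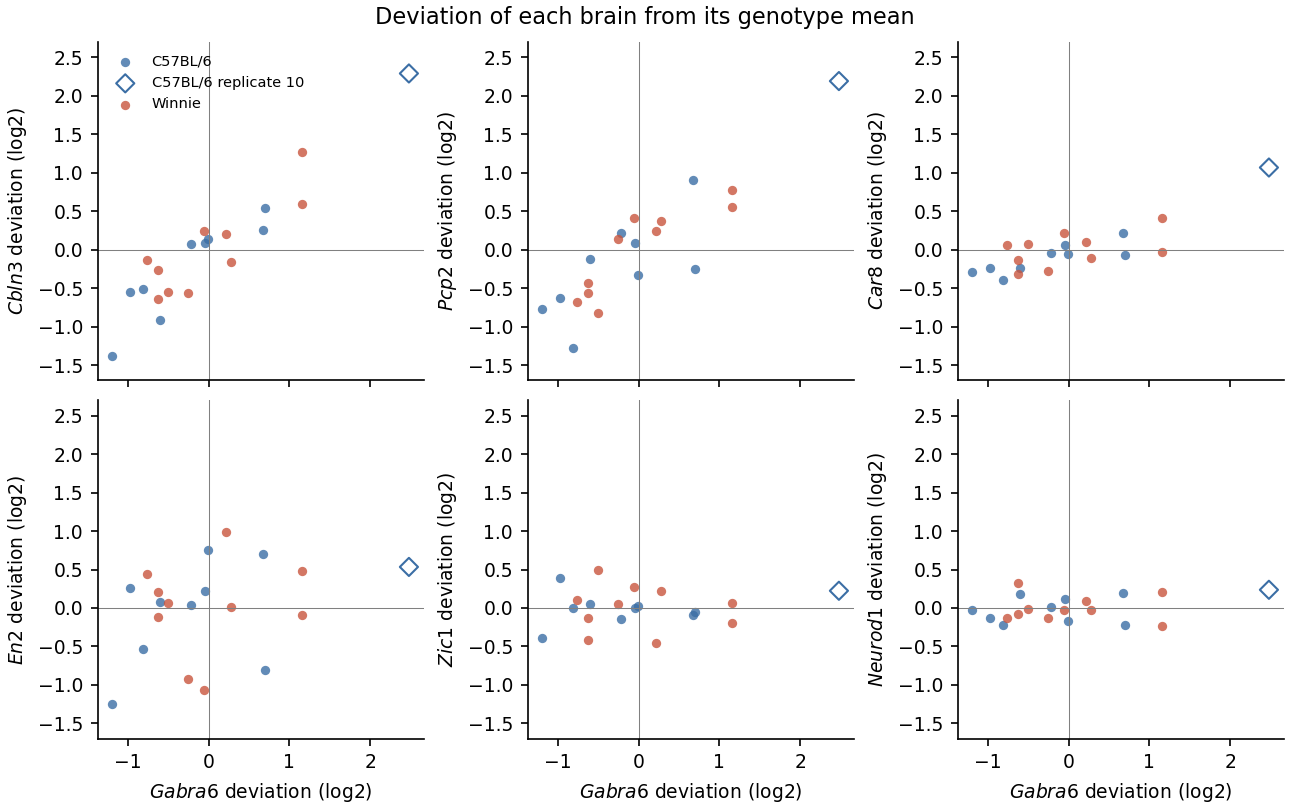
Deviation of each brain from its genotype mean in log2(CPM + 0.5), for *Gabra6* on the horizontal axis and for *Cbln3*, *Pcp2*, *Car8*, *En2*, *Zic1* and *Neurod1* on the vertical axes, with C57BL/6 in blue, *Winnie* in red and an open diamond for C57BL/6 replicate 10. *Cbln3* and *Pcp2* follow *Gabra6* through the whole range (r = 0.932 and 0.890), *Car8* rises mainly at the diamond (r = 0.636 without it), and *Zic1* shows no slope (r = 0.0794).

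Outside the 10 genes, those most like *Gabra6* among genes with a mean of at least 1 CPM were *Fat2* (r = 0.844), a cadherin of granule cells, *Myh11* (0.788), the smooth muscle myosin, *Ppp1r17* (0.783), a phosphatase inhibitor of Purkinje cells, *Fam107b* (0.750) and *Slc22a4* (0.740), a transporter. Those with the lowest r were *Scnn1a* (−0.623), *Med6* (−0.619) and *B3glct* (−0.618). Those most like *Pcp2* were *Myh11* (0.781), *Ppp1r17* (0.767), *Cnpy1* (0.722), *Arhgap17* (0.717) and *Arhgef33* (0.713), and the lowest were *Cdo1* (−0.721), *Mtpn* (−0.689) and *Dnajb12* (−0.670). Each r is over the same 20 brains. *Fat2* had a median of 0.734 CPM and reached 10.2 CPM in C57BL/6 replicate 10, and its r with *Gabra6* was 0.592 in *Winnie* and 0.702 without that library. The r of *Pcp2* with *Arhgef33* was 0.0772 in *Winnie* and 0.452 without that library. *Myh11* depended less on it, with r of 0.777 with *Gabra6* and 0.770 with *Pcp2* without that library, and 0.765 and 0.708 in *Winnie*. The 9 measured genes of a list of other Purkinje cell genes and the 10 of a list of other granule cell genes mostly did not follow *Gabra6*. The median r was 0.258 and −0.0080, and 1 gene of each list (*Ppp1r17* and *Fat2*) exceeded 0.5. Many of these genes, such as *Itpr1* (378 to 535 CPM) and *Rbfox3* (293 to 399 CPM), are used by neurons of the whole brain.

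*En2* also varied strongly between brains, but with other partners. Its r was 0.321 with *Gabra6* and 0.300 with *Pcp2*. The genes most like it, looked up after its spread was seen, were its paralog *En1* (r = 0.972), *Vamp1* (0.968), *Pax5* (0.963), *Barhl1* (0.960) and *Gata3* (0.957), of which *En1*, *Pax5* and *Gata3* are known from the midbrain and hindbrain. *Barhl1* stands in the list of other granule cell genes. Within C57BL/6 and within *Winnie* the r of *En2* with *Pax5* was 0.958 and 0.973. The genes of lists for other brain regions moved with *En2* as well. All 10 striatal genes (such as *Drd1*, *Drd2* and *Adora2a*) had negative r with *En2*, from −0.745 to −0.503, and their summed level correlated with *En2* at r = −0.726 and rho = −0.633 (adjusted permutation p = 0.0077 for r over 64 relations of 4 members with 16 lists, those of *En2*, *Zic1* and *Neurod1* being added after values were seen). The sum over the 5 measured brainstem genes gave r = 0.710 and rho = 0.782 (adjusted permutation p = 0.0096 for r). Of these 5 genes, the glycine transporter gene *Slc6a5* had r = 0.915, the serotonin synthesis gene *Tph2* 0.776, the serotonergic factor *Fev* 0.665 and the noradrenaline synthesis gene *Dbh* 0.508, whereas the acetylcholine synthesis gene *Chat* had the opposite sign at −0.345. Both relations had the same sign in each genotype, at −0.817 and −0.626 for the striatal genes and 0.821 and 0.609 for the brainstem genes in C57BL/6 and *Winnie*. Sums of 5 olfactory bulb genes and of 6 genes of cerebellar interneurons and unipolar brush cells had higher r with *En2*, 0.872 and 0.850. Adjusted permutation p was 0.00064 for each. In the first list only *Th* had r over 0.5 (0.893). Sums of other granule cell, Bergmann glia and GABA-A subunit genes also passed for r, at −0.659, −0.602 and 0.585. By rank only the granule cell sum passed (adjusted permutation p of rho 0.049, 0.155 and 0.155). The median r of the single genes of these lists was 0.120, −0.0113 and 0.644, so a sum can differ from most of its genes. Of the 9 other Purkinje cell genes 4 had r over 0.5, *Lhx1* being highest (0.870), and their sum gave −0.0414.

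*Neurod1* had a small spread and was, like *En2*, negatively related to the striatal genes. All 10 striatal genes had negative r with it, from −0.784 to −0.664, and their sum gave r = −0.703 and rho = −0.704 (adjusted permutation p = 0.013 for r). Other sums passed for r with *Neurod1* as well. Genes listed as partners or relatives of the Purkinje cell members gave −0.647, relatives of *Zic1*, *En2* and *Neurod1* 0.732 and hypothalamic genes −0.574. Adjusted permutation p was 0.019, 0.0077 and 0.049 for r. By rank the hypothalamic sum did not pass with *Neurod1* (adjusted permutation p = 0.109). The sum over 10 genes of cortex and hippocampus gave r = 0.488 (adjusted permutation p = 0.13), with 0.122 in C57BL/6 and 0.850 in *Winnie*, and its paralog *Neurod6*, a gene of forebrain excitatory neurons, gave r = 0.734. *Zic1* was related to its other family members *Zic4* (r = 0.703), which overlaps it, and *Zic5* (0.698), and to the summed hypothalamic genes at r = 0.633 (adjusted permutation p = 0.034), with 0.180 in C57BL/6 and 0.791 in *Winnie*. The latter relation did not pass by rank (rho = 0.493, adjusted permutation p = 0.16), and r was 0.477 without the 2 farthest brains. *Gabra6* was not related to any of the 16 summed lists past an adjusted p of 0.05, and its r with the striatal sum was −0.269. Abundant genes make up most of such sums, as *Itpr1* (median 408.8 CPM) does for other Purkinje cell genes (C57BL/6 median sum 658.0 CPM). *Fat2* (median 0.734 CPM) and *Ppp1r17* (1.22 CPM), which followed *Gabra6*, hardly enter them. The sums of the other Purkinje and granule cell lists therefore could not show a relation carried by such low genes. The striatal sum itself ran from 376 to 1297 CPM in C57BL/6 and from 364 to 1275 CPM in *Winnie*. C57BL/6 replicate 10 was at 435 CPM, rank 15 of the 20 brains. The levels of regional genes thus differed between brains of 1 genotype along with *En2* and *Neurod1*, and the part of dissection in this was not tested.

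**Figure D4:**
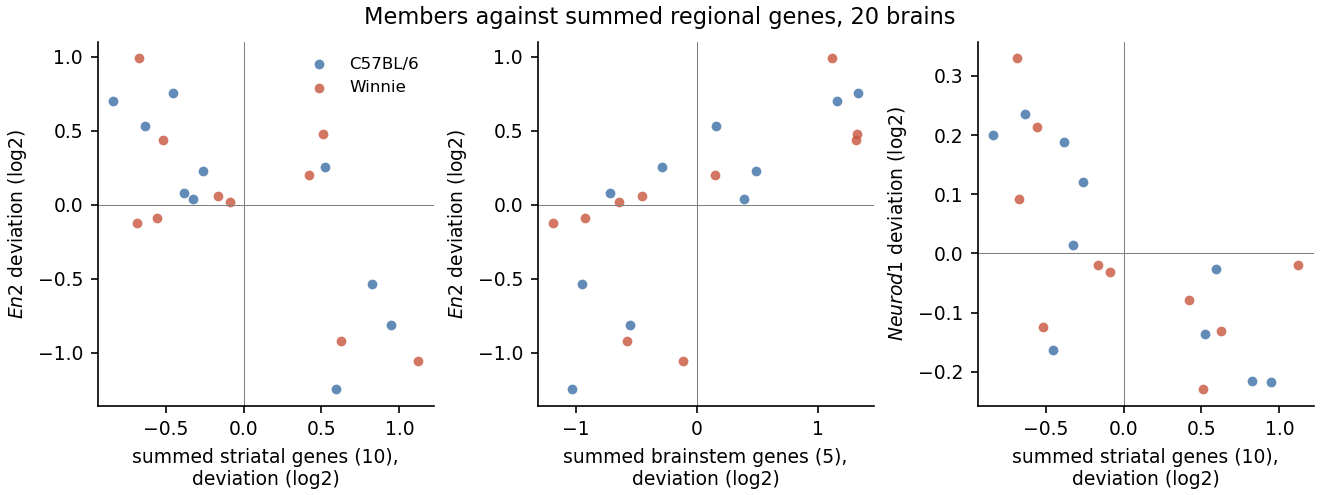
Deviation of each brain from its genotype mean in log2 units, for the summed CPM of 10 striatal genes or 5 brainstem genes on the horizontal axes and for *En2* or *Neurod1* in log2(CPM + 0.5) on the vertical axes, with C57BL/6 in blue and *Winnie* in red. *En2* falls with the striatal sum (r = −0.726) and rises with the brainstem sum (r = 0.710), and *Neurod1* falls with the striatal sum (r = −0.703).

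*Winnie* was then compared with C57BL/6, which asks whether chronic colitis goes with a change of these genes in the brain. None of the 10 members was called at a false discovery rate (FDR, Benjamini-Hochberg over all 17211 genes) under 0.05 in limma, where 2.52% of all genes were called. At an unadjusted p under 0.05, 1 member, *Car8*, was called, against 17.6% of all genes. At the study's threshold (FDR under 0.001 and at least 1.5-fold), 0 members were called in limma, and 0% of all genes. The paper applied this threshold with edgeR to fewer brains and reports differentially expressed genes there, so the limma share is not a repeat of its test. With edgeR and with DESeq2 on the recovered reads, 0 members were called at an FDR under 0.05, where 517 and 977 of all genes were called. At an unadjusted p under 0.05 either tool called 3 members, *Gabra6*, *Cbln3* and *Car8*. The share of all genes at that p was not worked out for these tools, so the 3 have no background to be set against. DESeq2 gave no adjusted p for *Gabra6* and *Pcp2*. In limma 7 members were lower and 3 higher in *Winnie* by the sign of the estimate, with a median log2 fold change of −0.18 against 0.0022 over all genes.

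The members with the largest estimates were those that vary most between brains. The log2 fold change on the log2(CPM + 0.5) scale, *Winnie* over C57BL/6, was −0.75 for *Gabra6* (SE 0.41, limma FDR 0.35), with means of 1.46 ± 2.18 CPM in C57BL/6 and 0.453 ± 0.528 CPM in *Winnie* (SD, n = 10 each). In 8 of 10 *Winnie* brains *Gabra6* lay below the C57BL/6 median. For *Cbln3* the difference was −0.64 (SE 0.36, limma FDR 0.38), with 9 of 10 *Winnie* brains below the C57BL/6 median, and the mean levels were 3.05 ± 3.54 CPM and 1.40 ± 0.937 CPM. *Pcp2* gave −0.45 (SE 0.35, limma FDR 0.55) and *En2* −0.31 (SE 0.28, limma FDR 0.62). *Car8* gave −0.30 (SE 0.14, 95% interval −0.59 to −0.0021), with means of 12.7 ± 4.89 CPM in C57BL/6 and 9.92 ± 1.64 CPM in *Winnie*. Its unadjusted limma p was 0.049, its two-sided permutation p was 0.041 and its limma FDR was 0.28, and 9 of 10 *Winnie* brains lay below the C57BL/6 median. The unadjusted limma p of *Car8* was at or over 0.05 in 13 of the 20 fits that left out 1 brain (highest 0.087), with labelled sex as a covariate (0.057) and with the replicate block (0.092). The 2 genotypes overlapped in each of these 5 genes.

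The sizes of these estimates rested in part on 1 control brain. Without C57BL/6 replicate 10 the log2 fold change became −0.47 for *Gabra6*, −0.39 for *Cbln3*, −0.21 for *Pcp2* and −0.18 for *Car8*, whose unadjusted limma p was 0.046. On the recovered reads edgeR gave −1.67 for *Gabra6* (edgeR FDR 0.16), −1.10 for *Cbln3* and −1.21 for *Pcp2*. Without that library edgeR gave −0.84, −0.49 and −0.47, and 0 members had an unadjusted p under 0.05. With the level of *Gabra6* as a covariate the estimate for *Pcp2* was 0.13 (SE 0.16), on the other side of 0.

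**Figure D5:**
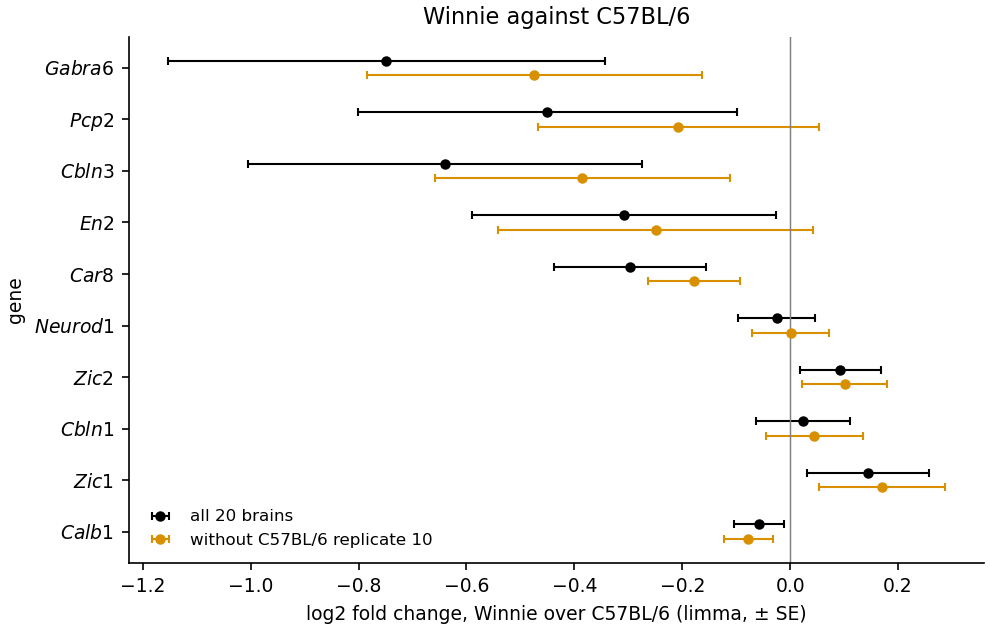
Log2 fold change of each of the 10 genes, *Winnie* over C57BL/6, with its standard error from limma, for all 20 brains in black and without C57BL/6 replicate 10 in orange. The estimates of *Gabra6*, *Cbln3*, *Pcp2* and *Car8* move towards 0 without that brain (−0.75 to −0.47 for *Gabra6*), and those of *Neurod1*, *Cbln1* and *Calb1* lie close to 0 in both.

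The other 5 members had smaller estimates, with intervals that include 0. *Calb1* gave −0.06 (SE 0.046, 95% interval −0.15 to 0.037) and *Neurod1* −0.03 (SE 0.071, 95% interval −0.17 to 0.12). *Cbln1* gave 0.02 (SE 0.088, 95% interval −0.16 to 0.21), *Zic2* 0.09 (SE 0.075) and *Zic1* 0.14 (SE 0.11, 95% interval −0.091 to 0.38). Their limma FDR lay between 0.55 (*Zic1*) and 0.93 (*Cbln1*).

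The genes that work with these members were also mostly not called. Of the 7 genes listed as partners or relatives of the cerebellins, the 5 other subunits found with the *Gabra6* product and the 7 measured relatives of *Zic1*, *En2* and *Neurod1*, 0 were called in either direction by limma at an FDR under 0.05. Their median log2 fold changes were 0.04, −0.0033 and 0.03, and their lowest members were *Cbln2* (−0.13), *Gabrd* (−0.23) and *En1* (−0.14). The highest of the receptor subunits was *Gabrb2* (0.16). Of the 9 other Purkinje cell genes and the 10 other granule cell genes, 0 were called, with medians of −0.0030 and −0.05. *Ppp1r17* (−0.14) and *Lhx1* (0.13) were the ends of the first list, and *Fat2* (−0.59, limma FDR 0.46) and *Barhl2* (0.34, limma FDR 0.23) those of the second. Of the 7 genes listed as partners or relatives of the Purkinje cell members, 2 were lower in *Winnie* and 0 higher. Over all 17211 genes 173 were lower and 261 higher. *Pcp4*, a calmodulin regulator expressed in Purkinje cells and in forebrain neurons, fell from 39.1 ± 5.81 to 30.3 ± 2.71 CPM (log2 fold change −0.35, SE 0.072, limma FDR 0.011). *Car2*, a carbonic anhydrase of oligodendrocytes and other glia, fell from 186.7 ± 9.15 to 159.9 ± 16.4 CPM (log2 fold change −0.23, SE 0.047, limma FDR 0.011). Between brains, *Pcp4* and *Car2* had r = −0.303 and 0.0658 with *Gabra6*. Whether these calls go with a change of Purkinje cells was not tested. The highest of that list was *Gpsm1* (0.12). Of 5 Bergmann glia genes, *Hopx*, a homeodomain protein also made by other astroglia, fell from 23.0 ± 2.60 to 18.2 ± 2.13 CPM (log2 fold change −0.33, SE 0.066, limma FDR 0.0087), and *Gdf10* was the highest at 0.15. In each of these 3 genes 10 of 10 *Winnie* brains lay below the C57BL/6 median, the call held in 20 of 20 fits that left out 1 brain, and C57BL/6 replicate 10 had 32.2 CPM of *Pcp4*, 179.9 CPM of *Car2* and 19.2 CPM of *Hopx*, below the C57BL/6 means.

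No gene of the regional lists was called by limma at an FDR under 0.05 in either direction. The median log2 fold change was −0.21 over 10 striatal genes (*Adora2a* −0.38 to *Tac1* −0.08), −0.21 over 5 brainstem genes (*Tph2* −0.65 to *Fev* −0.09), 0.18 over 8 thalamic genes (*Rgs16* −0.06 to *Slitrk6* 0.26) and 0.15 over 9 hypothalamic genes (*Hcrt* −0.13 to *Sim1* 0.49). It was −0.04 over 10 genes of cortex and hippocampus (*Lamp5* −0.27 to *Wipf3* 0.27), 0.02 over 5 olfactory bulb genes (*Eomes* −0.23 to *Cdhr1* 0.11), −0.08 over 6 choroid plexus genes (*Kcne2* −0.40 to *Folr1* 0.01), 0.05 over 6 genes of cerebellar interneurons and unipolar brush cells (*Slc6a5* −0.21 to *Tfap2a* 0.18) and −0.03 over 8 general brain genes (*Aqp4* −0.16 to *Gad1* 0.05). Striatal sums had medians of 549.6 CPM in C57BL/6 and 537.1 CPM in *Winnie*. The library numbers in the labels run through C57BL/6 first and *Winnie* second, so an effect of library order and of genotype cannot be told apart.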

How the data were processed

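PolyA RNA of each brain was sequenced by the authors with paired-end reads on an MGISEQ-2000RS, processed with the RNAsik pipeline on GRCm38, counted per gene with featureCounts, and deposited as CPM over the listed genes. The processing notes of the submitters also name limma. In the deposited CPM values the smallest step gave 1 read, and 100% of values were whole numbers of reads (within 0.1), from 16540303 to 23923769 per library. These depths set the counting error, and the floor of 3 reads covers counting error only. The labels give 10 mice per genotype, more than the paper's methods give for the brain, and all 20 were used. p-values measure the spread between these mice.

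The members and all gene lists were chosen with earlier results of these data known. Genes were compared on log2(CPM + 0.5) with limma 3.58.1 (trend, robust) in R 4.3.3, with no filter, and p-values were adjusted by Benjamini-Hochberg over 17211 genes to give the FDR. limma was used in place of the count test of the paper's methods because the unit is CPM, and edgeR 4.0.16 and DESeq2 1.42.0 were run on the recovered reads. The fits were tested on simulated data. Correlations used deviations from genotype means, with two-sided permutation tests that exchanged brains within genotype (100000 resamples, scipy 1.17.1, numpy 2.4.6, Python 3.11.15). Counting SDs were worked out from the reads. Exon lengths and coordinates came from GENCODE M21.

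The genes named are the 10 members, the list genes past the FDR, the lowest and highest gene of each list by log2 fold change where reported, and the 5 genes most like and 3 least like *Gabra6* and *Pcp2*. The genes like *En2*, *Zic1* and *Neurod1* and those given as examples of a list were named after their values were seen. Tried in addition were pseudocounts of 0.1 and 1, a filter at a mean of 1 CPM, median-ratio, TMM and quantile scaling, labelled sex or *Gabra6* as a covariate, a replicate block, each brain left out, edgeR and DESeq2. For edgeR, leaving out C57BL/6 replicate 10 was added after seeing the data. Measurements of other tissues and of metabolites were left out. *Slc6a5*, *Rora*, *Itpr1*, *Gabrd* and *Neurod6* are among the genes that stand in 2 of the lists. The list genes *Skor2*, *Septin4*, *Agrp*, *Tbx21*, *Atoh1*, *Hoxa2*, *Hoxb2*, *Hoxb3*, *Hoxa5*, *Hoxb5* and *Slc6a2*, among others, were not analysed here. Some list genes are not reported here.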

Additional observations from a re-analysis of the deposited data

Results flagged for a closer look

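In each genotype the highest and the lowest brain of each member were set against the other 9 by the gap to the nearest brain over the whole range. This was done in CPM, in 20 groups of 10 brains. For normally distributed values chance flags about 1 group in 20. That rate need not hold for low and skewed levels such as those of *Gabra6*, *Pcp2* and *Cbln3*, and the log2 scale was not tried. The criterion was met 6 times, in 5 members and 3 libraries, and 4 of the 6 were C57BL/6 replicate 10. That brain had 7.44 CPM of *Gabra6*, where the next C57BL/6 brain had 1.81, 12.8 CPM of *Cbln3* (next 3.46), 5.02 CPM of *Pcp2* (next 1.76) and 26.0 CPM of *Car8* (next 14.2). The 4 genes are correlated, so these are not 4 independent events. *Winnie* replicate 4 had 3.70 CPM of *Cbln3*, where the next *Winnie* brain had 2.15. C57BL/6 replicate 3 had 20.02 CPM of *Cbln1*, where the next lowest C57BL/6 brain had 31.2.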

How the results depend on the processing

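The count of members called stayed at 0 under the 12 other fits and under each of the 20 fits that left out 1 brain (0 to 0), and it was 1 at an unadjusted p under 0.05. Of the 12 other fits, that with a minimum mean CPM of 1 tested 8 members and that with *Gabra6* as a covariate 9. DESeq2 gave no adjusted p for *Gabra6* and *Pcp2*, so these could not be called there. The replicate numbers did not pair the samples, since deviations of same-numbered brains correlated at −0.29 to 0.15, over 0.1 in 2 of 10 pairs. With the replicate block 0 members were called, and calls over all genes went from 434 to 227. Other counts over all genes were 977 with DESeq2, 864 with edgeR without C57BL/6 replicate 10, 694 in limma without that library, and as low as 169 without C57BL/6 replicate 5. Of the members' fold changes, 115 of 117 values under other settings and 197 of 200 with a brain left out kept their sign. Those of *Pcp2* (0.13) and *Neurod1* (0.013) changed sign with *Gabra6* as a covariate. With 1 brain left out, *Cbln1* ranged from −0.052 (without C57BL/6 replicate 3) to 0.055, and *Neurod1* from −0.062 to 0.0012 (without C57BL/6 replicate 10, 0.00046 without *Winnie* replicate 4). *Gabra6* ranged from −0.88 to −0.47 and *Car8* from −0.34 to −0.18, and without C57BL/6 replicate 10 the changes of both, of *Pcp2* and of *Cbln3* were the closest to 0. The median SD of the members was 0.30, ranging from 0.24 to 0.30 with 1 brain left out, and 0.88 relative to *Gabra6*, where the spread of *Gabra6* itself enters. The count of member pairs past an adjusted p of 0.05 was 7, ranging from 6 to 9 with 1 brain left out, 10 under median-ratio scaling, 8 in C57BL/6 alone and 3 in *Winnie* alone, and the cause was not tested. *Cbln3* with *Pcp2* was at r = 0.59 without the 2 brains farthest in *Gabra6* (adjusted permutation p = 0.074). Depth limits *Gabra6* and *Pcp2* most, with 4 brains each under 3 reads.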
